A study of Mus musculus with 4 samples.

Results

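The Fc receptor genes Fcgr1, Fcgr2b, Fcgr3, Fcgr4, Fcer1g, Fcer1a and Fcgrt were followed across CD11b+ cells of the mouse spleen. They were chosen by name, as the receptors for IgG and IgE, the chain that signals for them and the neonatal Fc receptor, and are 7 of the 27998 genes in the deposited table. All 7 are listed there, and 6 had at least 200 UMIs over both libraries, while Fcer1a had 34. No measured value was the rule for choosing members, but earlier results of these data were known when they were chosen.

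The study asked which cells GM-CSF, a myeloid growth factor, brings into the dendritic cell gate of the spleen. CITE-seq, in which 3′ RNA and antibody tags are read from the same single cells, was done on CD11b+ splenocytes sorted from C57BL/6 mice of 8 to 12 weeks. Mice of the treated group received 3 once-daily injections of 10 µg of GM-CSF, with cells taken 24 h after the last, and those of the steady-state group received none. Each condition is 1 library, so GM-CSF and library cannot be told apart, no replicate spread exists, and no test of the conditions was possible. All cells share the CD11b sort, and the sources used here do not tie cells to single animals.

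The steady-state library held 4827 cells with a median of 3371 UMIs per cell and the GM-CSF library 6804 cells with a median of 4916. Deposited names put the cells into 12 cell types, of which the monocyte, macrophage and dendritic cells were also clustered on their own by the authors. This second set, called the MoMacDC bundle below, held 2135 steady-state and 3940 GM-CSF cells in 17 clusters, with near-equal medians of 6894 and 6654 UMIs. Within it the authors gated CD115hi cells by tags into P-I (Ly6C+, classical monocytes), P-II (Ly6C- MHC II-, non-classical monocytes), P-III (Ly6C- MHC II+ CD301b-) and P-IV (Ly6C- MHC II+ CD301b+). P-IV cells are the dendritic cells that the study named GMiDC.

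Some labels went against marker genes. Cells deposited as cDC2-A summed to 20024 CPM of NK cells markers in steady state, with UMIs of all 7 genes of that list, and are called the NK-marker group here. The 43 steady-state cells of MoMacDC_c4 carried 12349 CPM of the same NK cells list against 18.8 CPM in its 595 GM-CSF cells, so that group differed in make-up between libraries. Only 8 cell barcodes occurred in both libraries.

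Fc receptors bind the constant part of antibodies and so tie antibody to the cell that carries them. In mice, FcγRI (Fcgr1), FcγRIII (Fcgr3) and FcγRIV (Fcgr4) are activating receptors that need the common γ chain, Fcer1g, for surface expression and for its ITAM signalling motif. FcγRIIB (Fcgr2b) carries an inhibitory ITIM motif instead and recruits the phosphatase SHIP, so the balance between the groups sets how readily immune complexes activate a myeloid cell. Fcer1a encodes the chain of the high-affinity IgE receptor that binds IgE, known from basophils and mast cells. Fcgrt encodes the neonatal Fc receptor, which works inside endosomes with β2-microglobulin and returns IgG and albumin to the cell surface.

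In GRCm38 coordinates, Fcgr2b (chr1:170958617-170976547), Fcgr4 (chr1:171018920-171029761), Fcgr3 (chr1:171051174-171064935) and Fcer1g (chr1:171229572-171234365) are neighbours on chromosome 1. Fcer1a lies further along at chr1:173221284-173227214. Fcgr1 is on chromosome 3 (chr3:96282909-96293969) and Fcgrt on chromosome 7 (chr7:45092990-45103851). Fcgr4 is on the plus strand and the other members are on the minus strand.

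Windows before the RefSeq starts of the activating receptors are shown because Fcgr1 and Fcgr4 were both low after GM-CSF while Fcgr3, a close neighbour of Fcgr4, was not. Each is the 250 bases before the RefSeq start in GRCm38.p6 (for Fcgr3 the first of 2 starts), written 5′ to 3′ on the strand of the gene, and capitals mark a motif match on either strand. The Fcgr3 window lies inside the gene span given above, and 27 of its bases are annotated as Fcgr3 exon, as are 6 bases of the Fcgr4 window for Fcgr4.
Fcgr1, chr3:96293970-96294219, minus strand: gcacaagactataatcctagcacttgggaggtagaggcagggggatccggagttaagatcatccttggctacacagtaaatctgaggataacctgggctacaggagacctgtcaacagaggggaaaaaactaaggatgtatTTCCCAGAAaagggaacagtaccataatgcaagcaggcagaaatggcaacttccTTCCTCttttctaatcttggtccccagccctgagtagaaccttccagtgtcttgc
Fcgr4, chr1:171018676-171018925, plus strand: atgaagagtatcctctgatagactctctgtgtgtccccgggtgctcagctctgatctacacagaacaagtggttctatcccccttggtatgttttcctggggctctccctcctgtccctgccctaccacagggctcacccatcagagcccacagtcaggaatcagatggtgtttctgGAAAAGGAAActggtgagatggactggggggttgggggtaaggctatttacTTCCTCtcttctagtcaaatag
Fcgr3, chr1:171059404-171059653, minus strand: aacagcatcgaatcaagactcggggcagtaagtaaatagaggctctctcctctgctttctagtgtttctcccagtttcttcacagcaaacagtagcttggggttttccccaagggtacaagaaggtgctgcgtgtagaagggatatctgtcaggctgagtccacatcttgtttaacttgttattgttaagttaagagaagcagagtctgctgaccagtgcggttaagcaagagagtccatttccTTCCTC
The motifs searched were TTCNNNGAA (STAT type), GAGGAA (PU.1 type) and the interferon-stimulated response element, and the matches shown do not overlap each other. Among 32851 mouse promoters of the same length, 7.02% held TTCNNNGAA, 23.3% GAGGAA and 2.98% the response element. Each of the windows shown held the GAGGAA letters, read as TTCCTC. They lay 49 bases before the start of Fcgr1, 16 before that of Fcgr4 and directly before that of Fcgr3. TTCNNNGAA was found in the Fcgr1 window, 100 bases before the start, and the response element in the Fcgr4 window, 63 bases before the start. The windows of Fcgr2b, Fcer1g and Fcgrt, searched in the same way and not shown, held no match of any of these motifs. That of Fcer1a held GAGGAA 210 bases before the start. Of the 250 bases of the Fcgr2b window, 203 are annotated as exon. These matches describe letters and are not sites.

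Levels are given as UMIs of a gene per 1e6 UMIs of the group (CPM), with exact Poisson intervals in brackets, and every interval at 95% here covers counting error only. A 3′ UMI stands for 1 molecule whatever the length of the transcript. Ratios between groups come with exact binomial intervals, and a gene is called higher or lower where it was at least 2-fold apart and had 50 UMIs or more in the groups together.

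GM-CSF cells of the MoMacDC bundle carried more of the inhibitory receptor and less of 2 activating receptors. Fcgr2b stood at 142 CPM [136, 148] in steady state and 489 CPM [481, 497] after GM-CSF, a ratio of 3.44 [3.29, 3.61]. Fcgr1, the high-affinity IgG receptor, went from 87.7 CPM [83.0, 92.6] to 11.7 CPM [10.5, 13.1], a ratio of 0.134 [0.118, 0.151]. Fcgr4, typical of non-classical monocytes and neutrophils, went from 119 CPM [113, 124] to 15.8 CPM [14.3, 17.4], a ratio of 0.133 [0.120, 0.148]. Over the whole bundle Fcgr1 and Fcgr4 were thus lower by like amounts, 7.46-fold [6.60, 8.47] and 7.5-fold [6.75, 8.36]. Within single clusters, given below, their median ratios were less alike, at 0.163 and 0.348. The lists of classical monocytes markers (5 of 5 genes found) and non-classical monocytes markers (6 of 6) summed to 2225 and 2423 CPM in steady state and to 640 and 738 CPM after GM-CSF, and their part in these values was not tested.

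Fcgr3, the activating receptor with most UMIs, stood at 244 CPM in steady state and 270 CPM after GM-CSF, a ratio of 1.11 [1.06, 1.15]. Fcer1g, the chain that all activating members share, stood at 2338 and 1710 CPM, a ratio of 0.731 [0.721, 0.742], and stayed the most abundant member in both libraries. Fcgrt, the neonatal receptor, went from 35.4 CPM [32.5, 38.6] to 102 CPM [98.4, 106], a ratio of 2.88 [2.63, 3.17]. Members past 2-fold were therefore Fcgr2b and Fcgrt among the higher and Fcgr1 and Fcgr4 among the lower. Of the 10860 genes with enough UMIs in this comparison, 8.66% were at least 2-fold higher and 9.46% at least 2-fold lower, against 2 and 2 of the 7 members. The median gene moved by -0.06 on the log2 scale, and relative to that median the ratios were 3.59 for Fcgr2b and 3.01 for Fcgrt.

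The share of cells with a UMI moved with these levels. An Fcgr2b UMI was found in 47.8% of steady-state and 82.8% of GM-CSF cells of the bundle, or in 13% and 37.3% after each cell was thinned to 1000 UMIs. An Fcgr1 UMI was found in 32.8% and 6.60% of cells, thinned 8.58% and 1.21%. An Fcgr4 UMI was found in 33.9% and 8.45%, thinned 13.4% and 1.96%. For background, T cells, which lack most of these receptors, held an Fcgr2b UMI in 2.30% of steady-state and 2.56% of GM-CSF cells, at medians of 3747 and 2357 UMIs. Their Fcgr1 share was 1.15% in steady state and 0 of 39 after GM-CSF. Thinning left out 14 steady-state and 61 GM-CSF cells of the bundle.

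**Figure D1:**
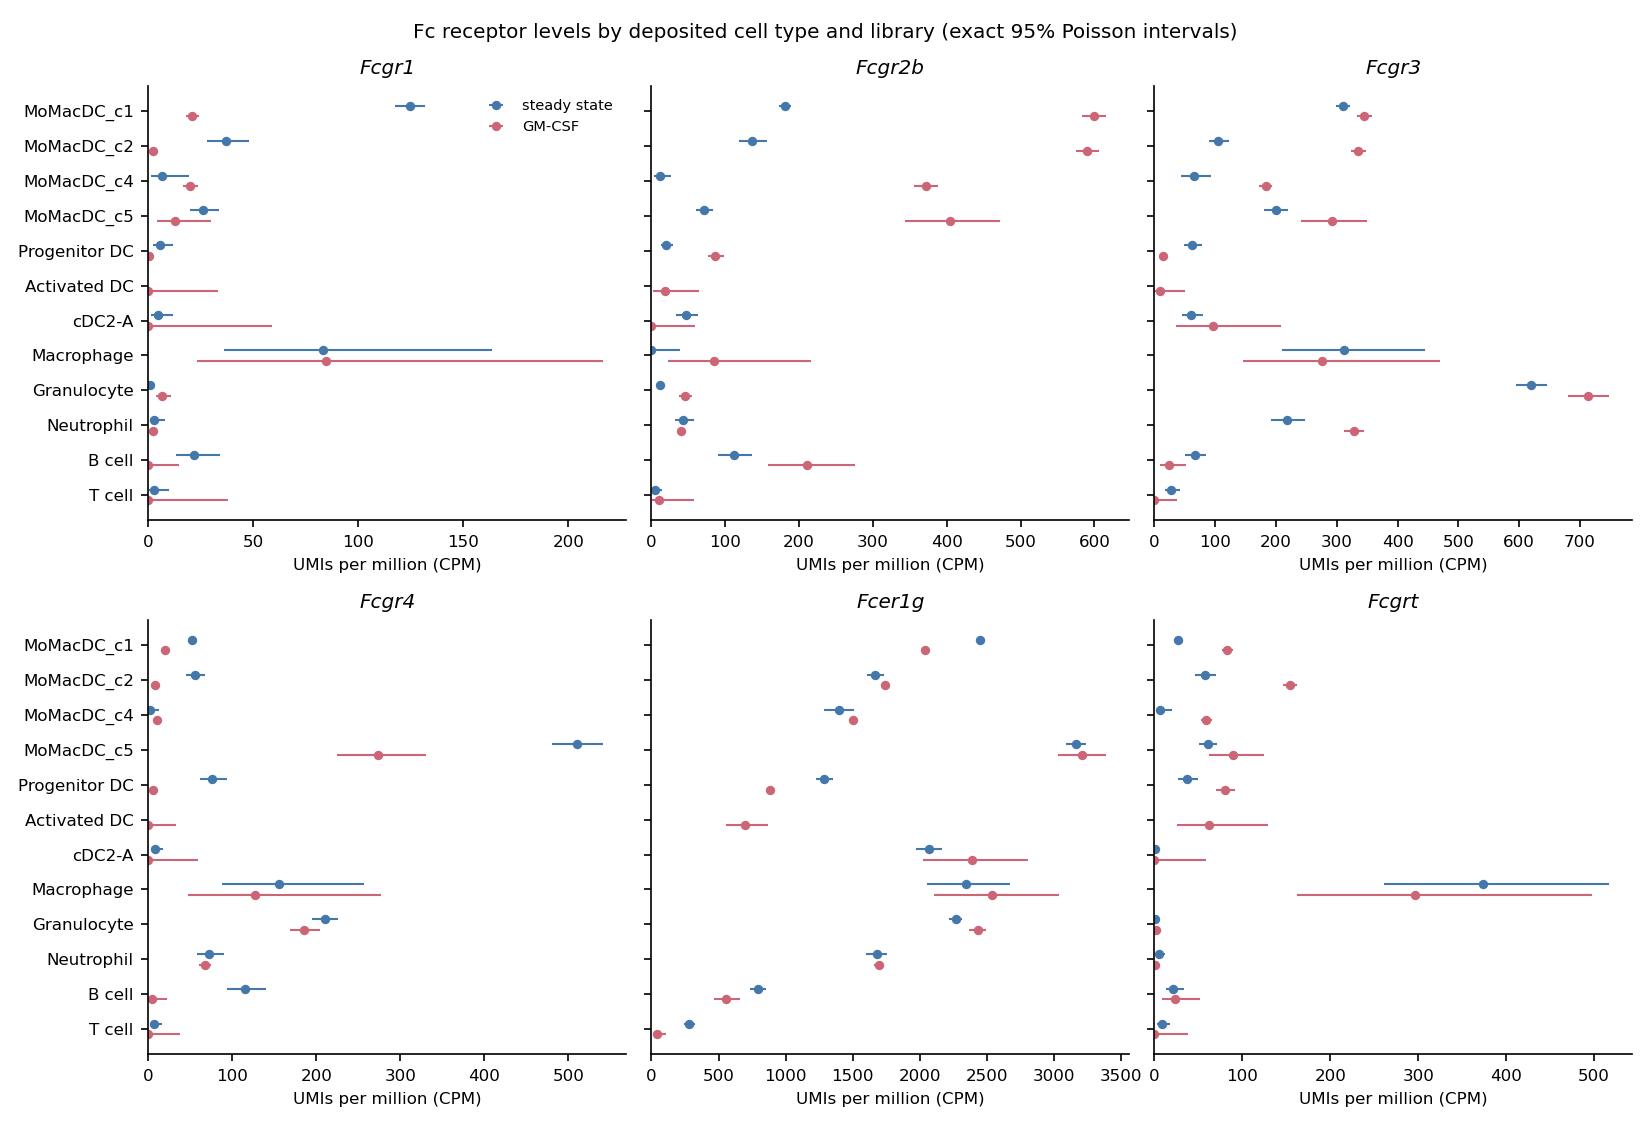
Level of each Fc receptor gene except Fcer1a, in CPM on a linear axis, in each deposited cell type. A point is drawn for each library with at least 20 cells of the type, with bars for the 95% Poisson interval of counting error. Fcgr2b lies to the right after GM-CSF in the MoMacDC groups, from 181 to 600 CPM in MoMacDC_c1, while Fcgr3 has its highest level in granulocytes in both libraries.

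The ratio of activating to inhibitory transcripts turned over. Fcgr2b made up 24% [23.1, 24.9] of the 8862 FcγR UMIs of the steady-state bundle and 62.1% [61.5, 62.8] of the 21312 after GM-CSF, an odds ratio of 5.21 [4.92, 5.51]. There were 3.17 activating UMIs per Fcgr2b UMI in steady state and 0.609 after GM-CSF. Capture differs between genes, so these shares can be set against each other between groups but do not give the protein balance of a cell. Fcgr1, Fcgr3 and Fcgr4 took 14.8%, 41.2% and 20.02% of FcγR UMIs in steady state. After GM-CSF they took 1.49%, 34.4% and 2.01%, so that Fcgr3 made up most of the activating part that was left. The common chain kept its excess, with 5.19 Fcer1g UMIs per activating UMI in steady state and 5.74 after GM-CSF.

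**Figure D2:**
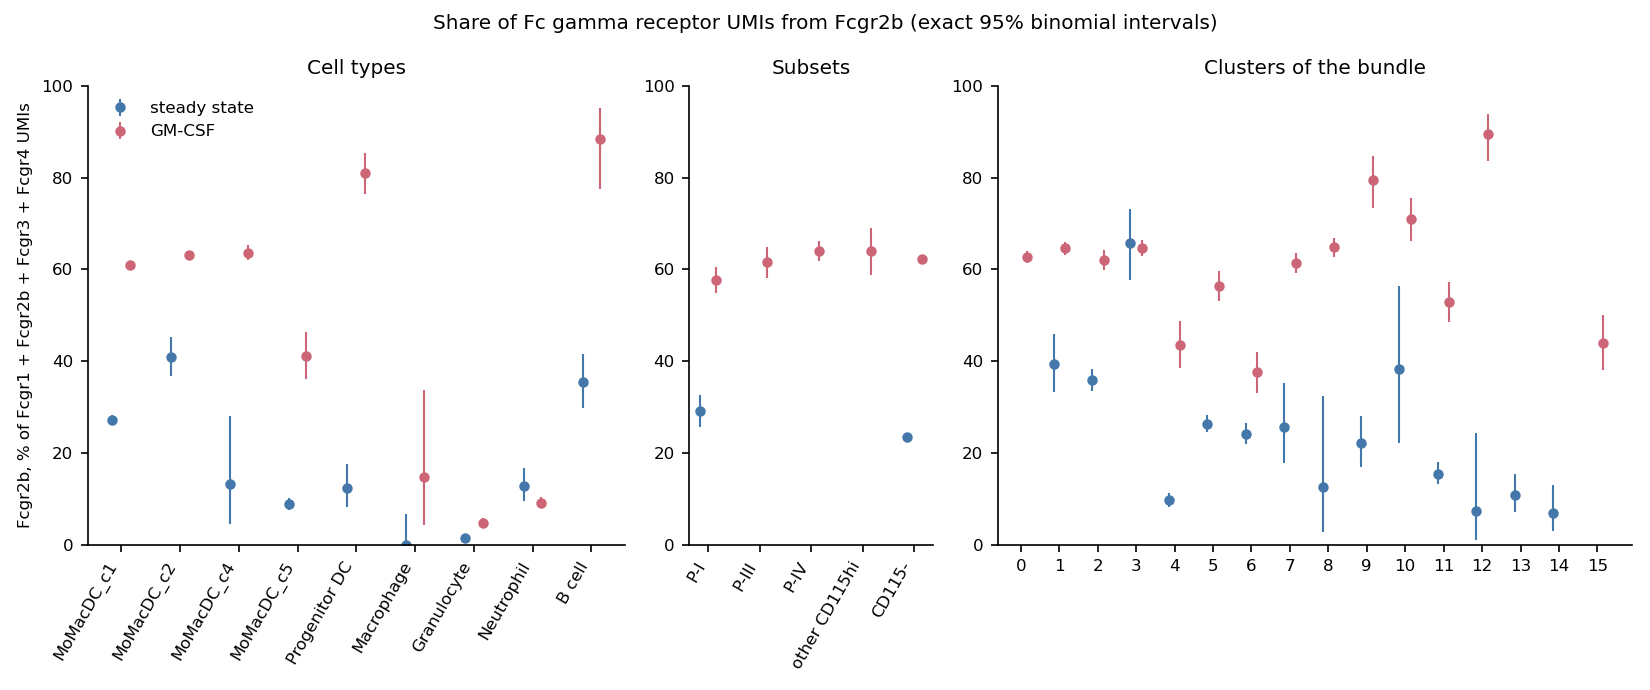
Share of Fcgr2b among all UMIs of Fcgr1, Fcgr2b, Fcgr3 and Fcgr4, in percent, by group and library, with exact binomial 95% intervals. The share of MoMacDC_c1 stands at 27.1% in steady state and 60.9% after GM-CSF, and that of granulocytes at 1.33% and 4.79%.

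Single cells showed the same turn. Cells with activating UMIs and no Fcgr2b UMI were 40.0% of the steady-state bundle and 7.64% after GM-CSF. Cells with Fcgr2b UMIs alone were 5.20% and 17.8%, and cells with both kinds were 42.6% and 65.1%. Thinned to 1000 UMIs, activating-only cells were 32.9% and 14.2% and Fcgr2b-only cells 8.11% and 26.2%. Absence of a UMI is no absence of the transcript, since 54.1% and 48.5% of thinned cells held neither kind.

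**Figure D3:**
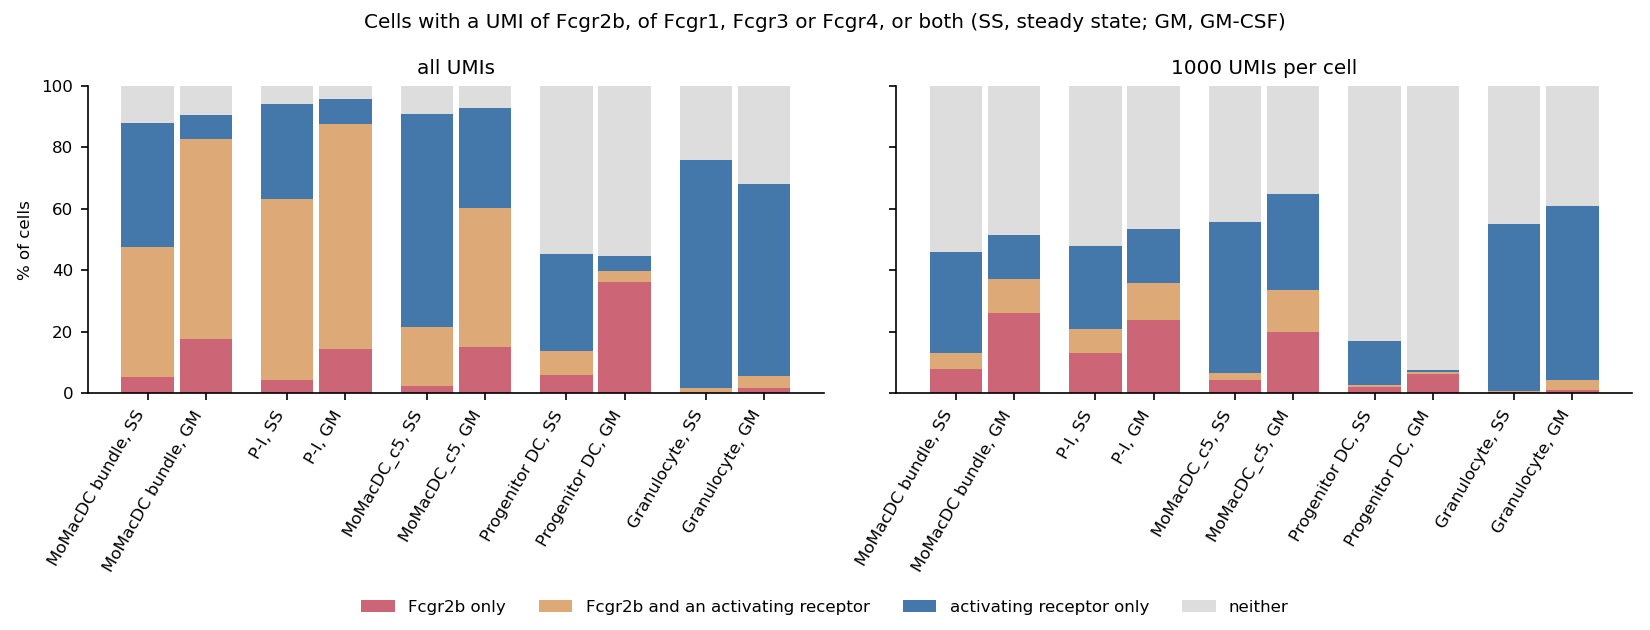
Percent of cells with a UMI of Fcgr2b only, of both kinds, of activating Fcγ receptors only or of neither, stacked to the whole for each group and library. In the MoMacDC bundle the activating-only class holds 40.0% of steady-state and 7.64% of GM-CSF cells, and the class with both kinds 42.6% and 65.1%.

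Classical monocytes gave the closest comparison of 1 gated population in both libraries, with 139 P-I cells in steady state and 187 after GM-CSF. Fcgr2b stood at 189 CPM [164, 216] and 490 CPM [454, 529], a ratio of 2.60 [2.22, 3.06]. Fcgr1 stood at 117 CPM [97.7, 139] and 21.5 CPM [14.5, 30.7], a ratio of 0.186 [0.119, 0.275]. Fcgr4 stood at 77.8 CPM [62.1, 96.2] and 25.8 CPM [18.1, 35.7], a ratio of 0.334 [0.218, 0.495]. So Fcgr2b was higher and Fcgr1 and Fcgr4 were lower within the Ly6C+ monocyte gate too. Among 5774 genes compared in P-I, 4.99% were at least 2-fold higher and 7.12% at least 2-fold lower, against 1 and 2 members.

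Fcgr3 in P-I cells stood at 266 and 312 CPM, a ratio of 1.17 [1.01, 1.36], and Fcer1g at 2466 and 1968 CPM, a ratio of 0.798 [0.756, 0.842]. Fcgrt stood at 32.0 CPM [22.3, 44.5] and 56.6 CPM [44.8, 70.6], a ratio of 1.75 [1.17, 2.71] that did not reach 2-fold. The Fcgr2b share of P-I was 29.0% [25.7, 32.5] in steady state and 57.7% [54.9, 60.6] after GM-CSF, an odds ratio of 3.34 [2.73, 4.10]. Both monocyte lists were lower in P-I as well, classical monocytes at 2706 and 997 CPM and non-classical monocytes at 2187 and 988 CPM, and their part in the member values was not tested. The median gene of P-I moved by -0.10 on the log2 scale, which leaves Fcgr2b at 2.78 and Fcgrt at 1.88 relative to it. Cells outside the CD115hi gate, 1952 and 3256 of the bundle, gave like values, with Fcgr2b at 138 and 472 CPM and an Fcgr2b share of 23.5% and 62.2%.

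Within the GM-CSF library, the gates from Ly6C+ monocyte to GMiDC had inhibitory shares between 57.7% and 64.1%. Fcgr2b stood at 490 CPM [454, 529] in P-I, 672 CPM [614, 734] in the 126 cells of P-III and 568 CPM [538, 600] in the 313 cells of P-IV. Fcgr3 stood at 312, 400 and 312 CPM. P-III thus had the highest levels of both, 1.37 [1.22, 1.54] times P-I for Fcgr2b and 1.28 [1.10, 1.49] times for Fcgr3, while P-IV and P-I had a ratio of 1.16 [1.06, 1.27] for Fcgr2b and 1.0 [0.887, 1.13] for Fcgr3.

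Fcgr1 stood at 21.5 CPM in P-I, 5.41 CPM in P-III and 1.78 CPM in P-IV, the last from 4 UMIs in 4 of 313 cells. The ratio of P-IV to P-I was 0.0915 [0.0212, 0.235] for Fcgr1 and 0.195 [0.0870, 0.381] for Fcgr4. Both rest on fewer than 50 UMIs in the groups together and so fall outside the 2-fold calls. Fcgrt ran the other way, from 56.6 CPM in P-I to 111 CPM [88.2, 138] in P-III and 125 CPM [111, 141] in P-IV. Its ratio of P-IV to P-I was 2.20 [1.72, 2.88], the only one called at 2-fold between these subsets, and 1.96 in G1 cells alone. Its ratio of P-III to P-I was 1.96 [1.42, 2.70].

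The background of these comparisons was low. For P-III against P-I, 1.11% of 5233 genes were at least 2-fold higher and 2.71% lower, with no member called. For P-IV against P-I, 3.63% of 6803 genes were higher and 3.53% lower, with 1 member higher and none lower. For P-IV against P-III, 1.91% of 6216 genes were higher and 1.01% lower, again with no member, and Fcgr2b had a ratio of 0.845 [0.762, 0.940]. The Fcgr2b share was 61.5% [58.1, 64.9] in P-III and 64.1% [61.9, 66.2] in P-IV. Against P-I the odds ratio was 1.31 [1.13, 1.51] for P-IV and 1.17 [0.975, 1.41] for P-III, whose interval holds 1, as does that of P-IV against P-III at 1.12 [0.942, 1.32].

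Steady-state subsets other than P-I were small. The 8 P-II cells held 25 Fcgr4 UMIs, a level of 589 CPM [381, 869], and the 12 P-III cells held 33, a level of 406 CPM [280, 570]. The 7 P-IV cells held 14 Fcgr2b UMIs, a level of 258 CPM [141, 433]. After GM-CSF the 8 P-II cells stood at 180 CPM [58.4, 420] for Fcgr4 and 720 CPM [439, 1111] for Fcgr2b.

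**Figure D4:**
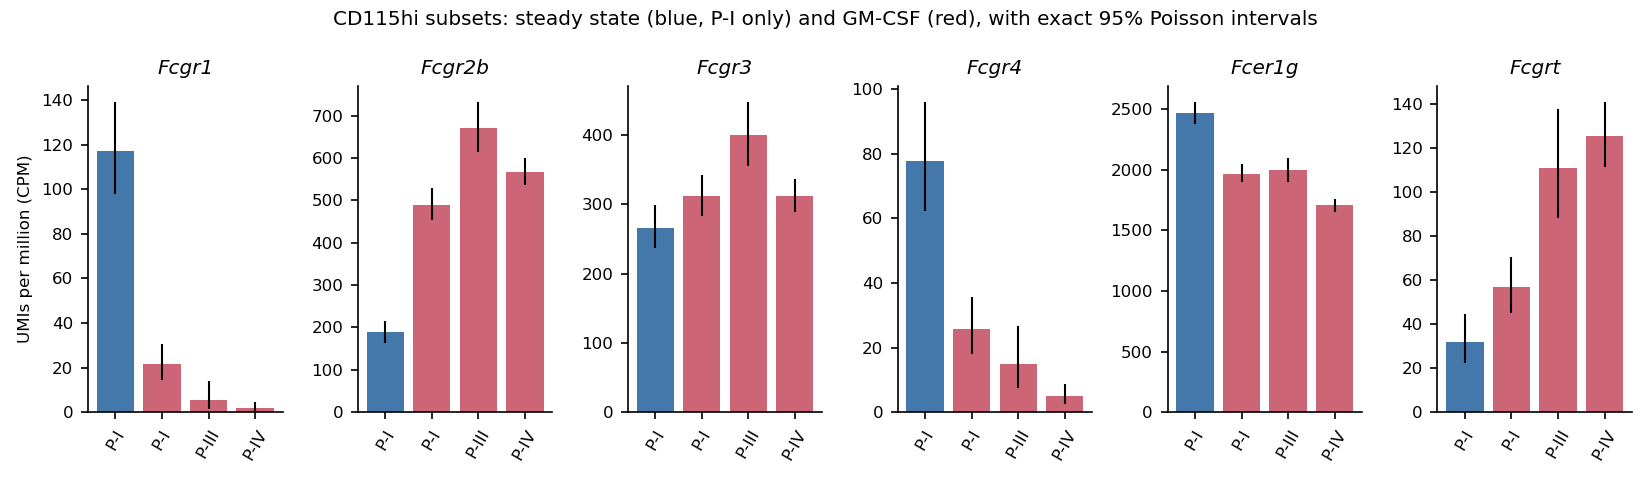
Level of each member except Fcer1a, in CPM on a linear axis, in steady-state P-I and in P-I, P-III and P-IV after GM-CSF. Error bars are 95% Poisson intervals. Fcgr1 goes from 117 CPM in steady-state P-I to 21.5 in P-I and 1.78 in P-IV after GM-CSF, while Fcgrt goes from 32.0 to 56.6 and 125 CPM.

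The activating receptors led in different cell types. Fcgr1 was highest in MoMacDC_c1 in steady state, at 125 CPM [118, 132], ahead of macrophages at 83.0 CPM [35.8, 164], which lay within counting error. After GM-CSF macrophages led with 84.7 CPM [23.1, 217] from 4 UMIs, and MoMacDC_c1 followed at 20.9 CPM [18.0, 24.2]. Steady-state B cells stood at 21.7 CPM [13.1, 33.9] from 19 UMIs, within counting error of MoMacDC_c5 at 26.0 CPM [19.7, 33.8]. These UMIs lay in 10 of 196 B cells, with up to 6 in 1 cell, and the level was 14.6 CPM with called doublets left out. The B cells also carried transcripts of the monocyte lists, given below, whose part in this Fcgr1 level was not tested. Granulocytes stood at 0.544 CPM from 2 UMIs in steady state and 6.63 CPM from 16 after GM-CSF, the latter above MoMacDC_c2 at 1.93 CPM.

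Fcgr4 was highest in MoMacDC_c5, whose cells carried the most transcripts of the non-classical monocytes list, 6728 CPM in steady state and 3052 CPM after GM-CSF. Its level there was 510 CPM [481, 542] in steady state and 274 CPM [224, 331] after GM-CSF, a ratio of 0.539 [0.436, 0.655]. Cells with an Fcgr4 UMI were 79.4% and 48.2% of MoMacDC_c5, thinned 41.2% and 24.5%. MoMacDC_c5 itself numbered 486 and 139 cells. In the same cells Fcgr2b stood at 71.1 CPM [60.3, 83.3] and 404 CPM [344, 472], a ratio of 5.68 [4.52, 7.14], and its share of FcγR UMIs was 8.81% and 41.1%. Marker content of MoMacDC_c5 moved with these values, and its part in them was not tested.

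Fcgr3 was highest in granulocytes, at 620 CPM [595, 646] in 1929 steady-state cells and 714 CPM [680, 748] in 1791 GM-CSF cells, a ratio of 1.15 [1.08, 1.23]. Fcgr4 in the same cells stood at 210 CPM [195, 225] and 186 CPM [169, 204], a ratio of 0.885 [0.786, 0.995]. Granulocytes thus kept both activating receptors near their steady-state level. Fcgr2b was scarce in them, at 11.2 CPM [8.01, 15.1] and 45.6 CPM [37.5, 54.9], yet its ratio of 4.05 [2.83, 6.0] passed 2-fold. The share of Fcgr2b among granulocyte FcγR UMIs was 1.33% and 4.79%. Cells with an Fcgr2b UMI were 1.87% and 5.81%. Thinned to 1000 UMIs, the steady-state share was 0.885% in granulocytes and 0.578% in T cells, at median depths of 1770 and 3747 UMIs before thinning, so it stood near that of a cell type that should lack the gene. The thinned GM-CSF share was 4.48% in granulocytes and 0 of 39 in T cells. Thinning left out 496 of the 1791 GM-CSF granulocytes, against 8 of 1929 in steady state. Of 6257 genes compared in granulocytes, 7.29% were at least 2-fold higher and 3.2% at least 2-fold lower, against 1 and 0 members, and the median gene moved by 0.11 on the log2 scale.

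Cells deposited as neutrophils numbered 146 and 893 and had no member called at 2-fold with 50 UMIs or more. Fcgrt, at 5.50 and 1.01 CPM, rests on 6 and 5 UMIs. Fcgr3 stood at 218 CPM [191, 248] and 328 CPM [312, 345], a ratio of 1.5 [1.31, 1.73]. Fcgr4 stood at 72.4 and 67.3 CPM, and Fcgr2b at 43.1 and 39.7 CPM, a ratio of 0.915 [0.668, 1.30]. Of 6489 genes compared there, 3.62% were at least 2-fold higher and 2.48% at least 2-fold lower. Their Fcgr2b share was 12.8% [9.56, 16.7] and 9.08% [7.90, 10.4], an odds ratio of 0.680 [0.481, 0.977], a share lower after GM-CSF where that of the bundle was higher.

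Fcgr2b was highest in MoMacDC_c1 in both libraries, at 181 CPM [173, 190] and 600 CPM [583, 616], a ratio of 3.31 [3.14, 3.5]. MoMacDC_c2 stood at 137 CPM [119, 156] and 591 CPM [575, 606], a ratio of 4.32 [3.78, 4.98], and after GM-CSF these leading groups did not differ beyond counting error. In MoMacDC_c2 Fcgr3 was higher as well, at 105 CPM [89.9, 122] and 336 CPM [324, 348], a ratio of 3.18 [2.73, 3.75]. Its Fcgr1 stood at 37.0 CPM and 1.93 CPM, a ratio of 0.0533 [0.0290, 0.0899]. The Fcgr2b share was 27.1% and 60.9% in MoMacDC_c1 and 40.9% and 63.1% in MoMacDC_c2.

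B cells, which use FcγRIIB as their only IgG receptor, carried Fcgr2b at 112 CPM [90.8, 136] in 196 steady-state cells and 211 CPM [158, 276] in 79 GM-CSF cells. The ratio of 1.90 [1.33, 2.66] missed 2-fold, and was 2.27 relative to the median gene of B cells, which moved by -0.26 on the log2 scale. Fcgr4 in B cells stood at 115 CPM [93.9, 140] in steady state and at 1 UMI, 3.98 CPM [0.101, 22.2], after GM-CSF. Steady-state B cells also carried 1234 CPM of the non-classical monocytes list and 724 CPM of the classical monocytes list, against 235 and 163 CPM after GM-CSF, where F13a1 and Vcan of the classical list were at 0. Of the steady-state B cells, 195 of 196 held 3 or more UMIs of B cell markers, and the part of these transcripts in the Fcgr4 values was not tested. With called doublets left out, 15 steady-state and 3 GM-CSF B cells, Fcgr4 stood at 123 and 4.28 CPM.

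Progenitor DC, 152 and 393 cells, held little FcγR transcript. Fcgr2b stood at 20.2 CPM [13.1, 29.9] and 86.6 CPM [76.3, 97.8], Fcgr3 at 62.3 CPM and 14.1 CPM, and Fcgr4 at 76.1 CPM and 5.70 CPM. Their Fcgr2b share was therefore 12.3% in steady state and 81.1% after GM-CSF. These cells carried 1118 CPM of the non-classical monocytes list in steady state and 341 CPM after GM-CSF. Their neutrophils and granulocytes list was also higher in steady state, with values given among the flagged results. The part of both lists in the shift was not tested. With 17 called doublets left out of the GM-CSF cells, Fcgr3 stood at 6.03 CPM and the share at 89.0%.

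Fcer1g was highest in MoMacDC_c5, at 3161 CPM [3086, 3237] and 3206 CPM [3031, 3388]. The NK-marker group, which uses the γ chain for other receptors, stood at 2064 and 2391 CPM. Its Fcgr3 stood at 60.6 and 95.7 CPM, and its Fcgr2b at 46.6 CPM in steady state and 0 UMIs after GM-CSF. The GM-CSF cells of this group were only 20, with 62728 UMIs in all. Their 0 UMIs allow up to 58.8 CPM, above the steady-state level, so no difference in Fcgr2b was detectable there. T cells had the lowest Fcer1g levels, 281 and 41.2 CPM.

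Fcgrt was highest in macrophages, at 374 CPM [262, 517] in 25 steady-state and 296 CPM [162, 497] in 22 GM-CSF cells, a ratio of 0.810 [0.395, 1.51]. After GM-CSF MoMacDC_c2 stood at 154 CPM [146, 162], against 57.6 CPM [46.5, 70.7] in steady state. Granulocytes and neutrophils had almost none, with 1 and 6 UMIs in steady state and 5 UMIs each after GM-CSF. T cells and the NK-marker group were low as well in steady state, with 6 and 1 UMIs. They had none after GM-CSF, in only 39 and 20 cells.

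Clusters of the bundle were compared one by one, since a change in the mixture of cells would move its totals as well. In the 12 clusters with at least 20 cells in both libraries, Fcgr2b was higher after GM-CSF in 12, each with an interval above 1, and the median ratio was 3.51, from 1.35 to 33.1. Fcgrt was higher in 12, 11 of them with intervals above 1, with a median of 2.73. Fcgr1 was lower in 10 of 11 clusters, 9 of them with intervals below 1, and Fcgr4 in 10 of 12, with 8. Their median ratios were 0.163 and 0.348. Fcgr3 had a ratio above 1 in 8 clusters and below 1 in 4, with a median of 1.15, and so had no common direction. Clusters are groups of cells from the same 2 libraries and are not replicates.

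**Figure D5:**
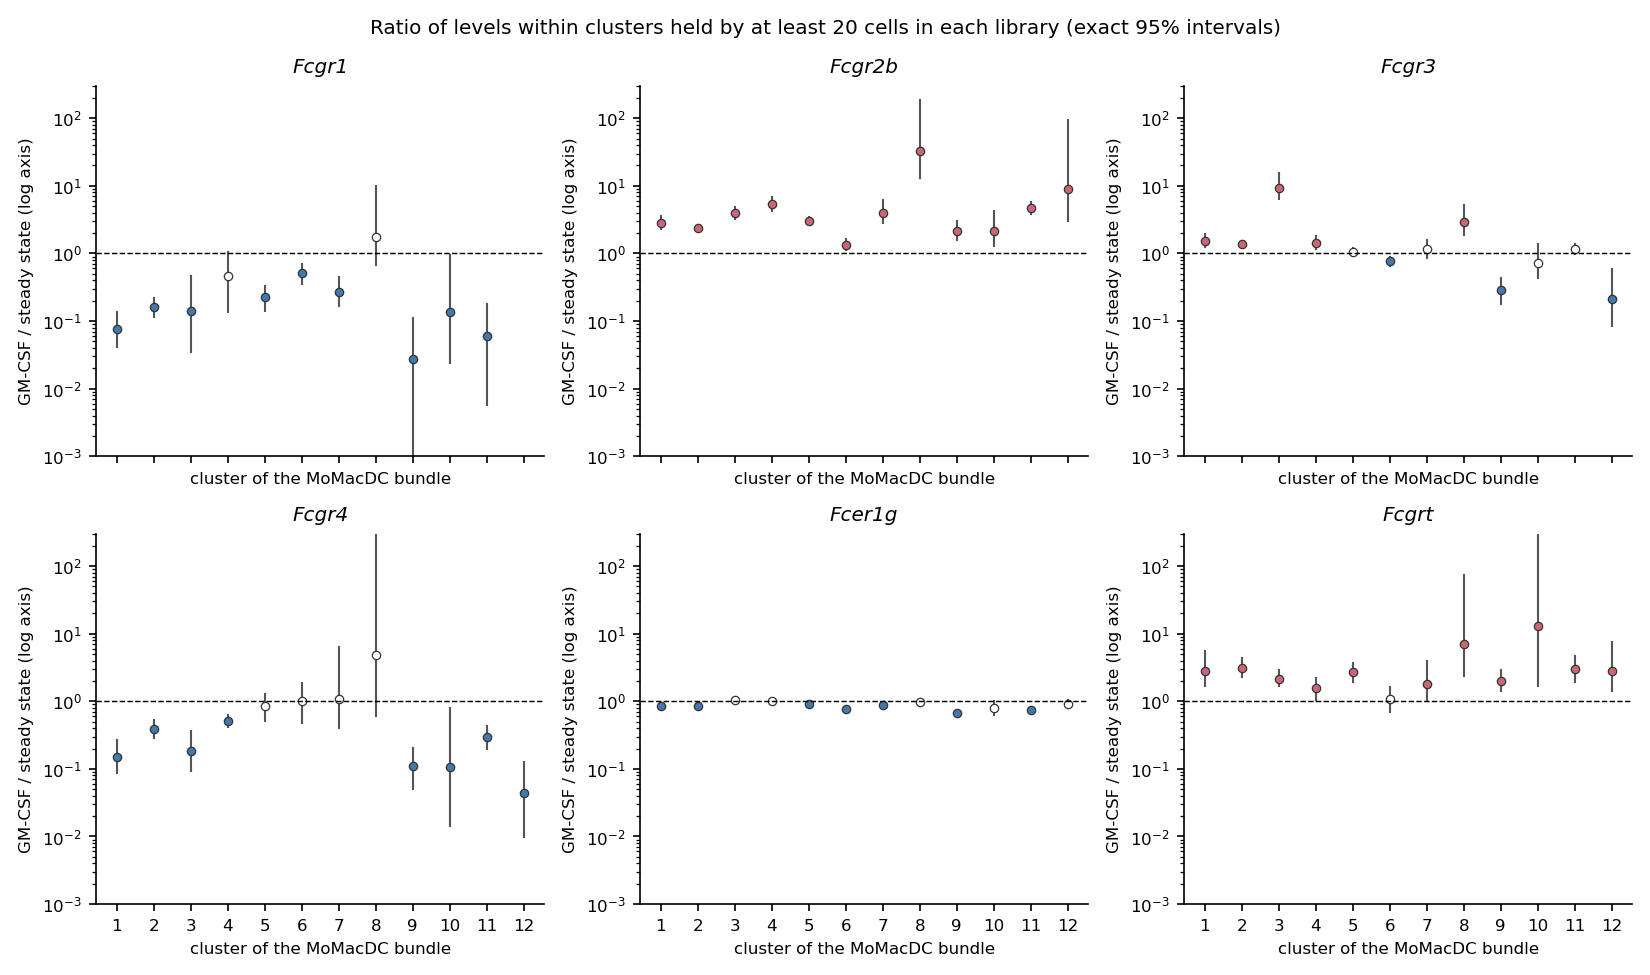
Ratio of GM-CSF to steady-state level of each member except Fcer1a, on a log axis, in the 12 clusters of the bundle with at least 20 cells in both libraries. Bars are 95% intervals of counting error, cut at the axis limits (red above 1, blue below 1, white holding 1). Fcgr2b and Fcgrt lie above 1 in all 12 clusters shown, and Fcgr1 lies below 1 in 10 of 11.

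The Fcgr2b share was higher after GM-CSF in 11 of these 12 clusters, with medians of 24.9% and 63.3%. In cluster 3 it was 65.8% [57.7, 73.3] in 88 steady-state cells and 64.7% [62.9, 66.4] in 512 GM-CSF cells, an odds ratio of 0.953 [0.662, 1.36]. Its steady-state cells were low in Fcgr3, at 30.3 CPM [19.0, 45.8] against 291 CPM [273, 310] after GM-CSF, beside Fcgr2b at 138 and 546 CPM. Cluster 6 had the lowest share after GM-CSF, 37.5% against 24.2%, and the smallest Fcgr2b ratio, 1.35 [1.12, 1.63]. Clusters 7 and 8 carried 5358 and 12662 CPM of the NK cells list in steady state against 8.74 and 25.4 CPM after GM-CSF, and cluster 8 gave the extreme Fcgr2b ratio. Without clusters 7, 8, 11, 14, 15 and 16, which carried markers of NK cells, neutrophils or plasma cells, the share of the bundle was 25.3% and 62.6%.

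Cluster 13 held the highest Fcgr1 level of any cluster. Its 29 steady-state cells stood at 610 CPM [513, 722], with an Fcgr1 UMI in 93.1% of cells and up to 15 in 1 cell, so that Fcgr1 took 56.9% of their FcγR UMIs. The 19 GM-CSF cells stood at 75.04 CPM. The classical monocytes list summed to 5962 CPM in the steady-state cells of this cluster and 259 CPM in the others, and its part was not tested.

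Surface tags on the same cells ordered the members along the monocyte gates. In the steady-state bundle, cells in the lowest quartile of the Ly6C tag stood at 288 CPM for Fcgr4 and 13.7 CPM for Fcgr1, and those in the highest at 32.4 and 139 CPM. Fcgr4 and Fcgr1 thus lay at opposite ends of Ly6C in steady state. In the GM-CSF bundle they did not, with the lowest and highest quartiles at 19.7 and 22.8 CPM for Fcgr4 and 4.19 and 25.8 CPM for Fcgr1. Quartiles were cut within each library and span unlike tag counts, so they are not the same Ly6C levels. The lowest and highest held 3 to 53 and 1059 to 23466 Ly6C counts in steady state, and 0 to 12 and 62 to 2107 after GM-CSF. In the GM-CSF bundle the lowest and highest quartiles of the MHC II tag had Fcgr2b shares of 56.5% and 65.7%, and Fcgrt levels of 65.1 and 110 CPM. Along the CD301b tag Fcgrt stood at 79.0 and 146 CPM. By deposited cell cycle phase, the Fcgr2b share of G2M cells was 18.8% [15.2, 22.9] in steady state and 65.0% [63.4, 66.6] after GM-CSF, an odds ratio of 8.01 [6.19, 10.5]. That of G1 cells was 23.9% [22.9, 24.9] and 61.6% [60.8, 62.4], an odds ratio of 5.13 [4.81, 5.47]. The share was thus higher after GM-CSF in both phases, and in S cells too, at 26.1% and 61.5%.

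Fcer1a was found in 2 cells, both of the GM-CSF library, with 14 and 20 UMIs. One was deposited in MoMacDC_c1 and the other in MoMacDC_c4. Each held UMIs of 7 of 7 basophil genes, among them 142 and 209 UMIs of Mcpt8, a basophil protease, and 11 and 10 of Ms4a2, the β chain of the IgE receptor. Neither held a UMI of the mast cell genes listed. No steady-state cell had an Fcer1a UMI, and 0 of 4827 allows a share of cells with such a UMI of up to 0.0622% (3 counts of the total), above the 0.0294% of the GM-CSF library, so no difference in that share was detectable at this depth. One steady-state cell held at least 4 of the basophil genes without Fcer1a.

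Signalling genes of the receptors were counted by the same rule, against the 8.66% of all genes higher and 9.46% lower in the bundle. Of 18 kinases and adaptors of activating receptors with enough UMIs in the bundle, 1 was at least 2-fold higher and 3 lower, with a median ratio of 0.767 against 0.959 for all genes. Fgr, a tyrosine kinase of myeloid cells, went from 407 to 167 CPM, a ratio of 0.409. Prkcd, a protein kinase C, had a ratio of 0.458 [0.408, 0.513] in P-I cells. Blnk, an adaptor best known from B cells, went from 4.68 to 29.8 CPM, a ratio of 6.32.

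Of 10 inhibitory enzymes and adaptors, 1 was higher and 2 lower, counts close to the same 8.66% and 9.46% of all genes, with a median ratio of 0.904. Dok2, an adaptor that dampens tyrosine kinase signalling, went from 11.8 to 163 CPM, a ratio of 13.8 [11.9, 16.2]. Its relative Dok3 went the other way, from 107 to 25.4 CPM, a ratio of 0.237. In P-I cells Dok2 had a ratio of 10.0 [5.68, 21.4] and Dok3 0.371 [0.272, 0.498], so these kin genes had the same directions in that gate. Cblb, a ubiquitin ligase, had a ratio of 0.428 in the bundle.

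Of 4 other Fc receptor-like genes with enough UMIs, 2 were higher and 0 lower, beside 8.66% and 9.46% of all genes. Fcrls had 1 UMI in the steady-state bundle and 549 after GM-CSF, a ratio of 202 [54.2, 11991], and within the GM-CSF library P-IV stood 20.1 [8.60, 83.6] times above P-I. Fcrla had a ratio of 2.52. B2m, the partner of the neonatal receptor, stood at 3056 and 1172 CPM, a ratio of 0.383, opposite in direction to Fcgrt. Of 6 other receptors that pair with Fcer1g, 1 was higher and 4 lower, beside the same shares of all genes, with a median ratio of 0.145. Clec4n, the lectin receptor dectin-2, went from 18.0 to 110 CPM, and Clec4e, the lectin receptor Mincle, had a ratio of 0.107. Ncr1, an NK cell receptor, had a ratio of 0.0098 beside the NK-marker cells of clusters 7 and 8. Immunoglobulin constant genes were not analysed here.

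Genes around the chromosome 1 receptors were compared in the same way. Of 27 other genes within 200 kb of the stretch from Fcgr2b to Fcer1g, 17 had enough UMIs, of which 2 were at least 2-fold higher and 0 lower after GM-CSF, beside 8.66% and 9.46% of all genes, with ratios from 0.754 to 2.52. Those higher were Fcrla, at 2.52, and Cfap126, at 2.04 and named after its value was seen. Fcgr2b and Fcgr4, neighbours there, had ratios of 3.44 and 0.133.

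Sequence overlap between the receptors bears on these counts. In the last 600 bases of coding transcripts, 86 of 1687 stretches of 50 bases in Fcgr2b, 5.10%, were also found in Fcgr3, and none of those of Fcgr1, Fcgr3 or Fcgr4 in another gene. A read that lies within a shared stretch fits both Fcgr2b and Fcgr3, and the effect on the counts was not tested.

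Patterns most like each member were measured as Pearson r of log2(CPM + 1) over 23 groups, the deposited cell types split by library. These points share libraries and depth, and r is a description over them. With Spearman's rho in its place, 0 to 3 of the 5 nearest genes per member were the same. Fcgr4 was nearest to Fgd4 (0.93) and Cd300ld (0.92), Fcer1g to Tyrobp (0.92), Fcgr1 to Itgb5 (0.91), Fcgr3 to Cyb5r1 (0.91), Fcgr2b to Spg21 (0.86) and Fcgrt to Lacc1 (0.94). Over 28 groups of bundle clusters split by library, Fcgr4 was nearest to Fgr (0.89), Fcgr2b to Naaa (0.95) and Fcgr1 to Ifi204 (0.95). Among members over cell types, Fcgr3 and Fcer1g had an r of 0.87 and Fcgr2b and Fcgr4 of 0.22.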

How the data were processed

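The authors mapped 3′ reads with Cell Ranger 3.0.2 to mm10, and the deposited RNA tables hold raw counts (UMIs) per gene and cell; antibody tags were counted with CITE-seq-Count 1.4.2. Cells under 200 or over 5000 detected genes, or above 15% of UMIs from mitochondria, had been dropped by the authors, who named clusters with Seurat 3.6.0. The deposited percent of mitochondrial UMIs per cell served only in an alternative. Labels, clusters, subsets and phases are the authors' own.

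Here UMIs were summed per group and library and divided by the group total (CPM). Levels have exact Poisson intervals, shares exact Clopper-Pearson intervals, and ratios exact binomial ones, with 0.5 counts added to each sum. With 1 library per condition no p-value was computed. Cells were thinned to 1000 UMIs to compare shares of cells (seed 20). Doublets were called with Scrublet in scanpy 1.11.5 (141 steady-state and 186 GM-CSF cells, 2.92% and 2.73%) and kept in the main values. Python 3.11.15, numpy 2.4.6, scipy 1.17.1 and pandas 2.3.3 were used. Ratio intervals were checked only on counts drawn from the Poisson model that they assume. That check cannot show how they hold under spread between cells or libraries. Depth was 22358903 and 35007567 UMIs.

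Members and gene lists were chosen with earlier results of these data known. Genes named are the members, at most 4 of each list of related genes by comparison (the 2 highest and 2 lowest ratios with 50 UMIs or more), and the genes most like each member out of its 5 nearest. Single values of some of these genes are not reported here. The columns condition, cell type and cluster mapped cells to libraries and groups, and the library named Ctrl there was taken as steady state.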

Additional observations from a re-analysis of the deposited data

Results flagged for a closer look

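Fcgr3 was flagged because it went opposite ways in different cell types after GM-CSF. Its ratio of GM-CSF to steady-state level was above 1, with an interval above 1, in granulocytes (1.15), neutrophils (1.5), MoMacDC_c1 (1.11), MoMacDC_c2 (3.18), MoMacDC_c4 (2.79) and MoMacDC_c5 (1.47). It was below 1, with an interval below 1, in B cells at 0.388 [0.127, 0.835] (0.451 with doublets left out, under 50 UMIs) and in Progenitor DC at 0.227 [0.151, 0.334]. Each cell type has 1 library per condition, and the difference between cell types was not tested. Progenitor DC carried 1118 CPM of the non-classical monocytes list and 9249 CPM of the neutrophils and granulocytes list in steady state, against 341 and 2141 CPM after GM-CSF, and B cells 1234 against 235 CPM of the non-classical monocytes list. The 43 steady-state cells of MoMacDC_c4 carried NK cells markers at 12349 CPM. The part of these cells in the Fcgr3 ratios was not tested.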

How the results depend on the processing

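No result changed direction where it was called. The Fcgr2b share of the steady-state bundle, 24%, moved by more than its interval to 21.9% with cells thinned to 1000 UMIs, 22.1% as a mean over cells and 25.3% without clusters 7, 8, 11, 14, 15 and 16, an alternative added after the data were seen. The GM-CSF share stayed between 61.6% and 62.6%. In P-I cells, thinning took the count of lower members from 2 to 0, since Fcgr1 (0.166) and Fcgr4 (0.437) fell under 50 UMIs, and G1 cells alone took the count of higher members from 1 to 2, with Fcgrt at 2.36. For P-IV against P-I, the count of higher members went from 1 to 0 with thinning, where Fcgrt (2.73) fell under 50 UMIs, and to 0 in G1 cells, where Fcgrt was at 1.96. Ratios kept their direction in 33 of 33 cases without doublets, 22 of 24 thinned, 23 of 24 as means over cells, 23 of 24 with at most 10% mitochondrial UMIs, 22 of 24 in G1 and 23 of 24 with median-of-ratios scaling. Their sizes held less well. In the same order, 32 of 33, 19 of 24, 23 of 24, 24 of 24, 16 of 24 and 21 of 24 stayed within their main interval. Without clusters 7, 8, 11, 14, 15 and 16, 3 of 6 did. The cell type with the highest level was the same in 13 of 13 orders with means over cells. The genes most like a member were less stable, with 0 to 3 of 5 shared between Pearson's r and Spearman's rho in 12 lists. No paired analysis was possible because each condition is 1 library. Depth limits Fcgr1 and Fcgr4 in P-III and P-IV and all values of groups under 20 cells.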
